A study of Mus musculus with 32 samples.

Results

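Aged MPP2 and Aged MEPs were compared by RNA sequencing, with 2 libraries in each group, which are 4 of the 32 libraries of the series. MPP2 are multipotent progenitors with a bias toward megakaryocytes and red cells, and MEPs are the committed progenitors of those lineages. The cells came from the bone marrow of female C57BL/6 mice aged 20 months, and the labels give no transgene or treatment for either group. By the labels, both fractions were IL-7-, negative for lineage markers and positive for c-kit. MPP2 carried Sca-1, CD34, CD48 and CD150 and lacked Flt3, while MEPs lacked Sca-1, CD34 and the Fcγ receptor. The same fractions from mice aged 10 weeks, 2 libraries each, gave a second comparison that shares no library with the aged one. Marrow was pooled before sorting, and the sources do not say which mice entered each duplicate. Every p-value here therefore measures a spread between duplicate libraries, which may be technical. That spread was estimated over all 32 libraries of the series unless a smaller fit is named.

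Commitment to the red cell and platelet lineages runs through a known set of regulators. GATA2 acts in stem cells and early progenitors and is replaced by GATA1 as cells become erythroid. GATA1, with TAL1 and KLF1, then activates the genes of heme synthesis, of the red cell membrane and of the erythropoietin receptor. In the megakaryocyte branch FLI1 and RUNX1 hold the corresponding place.

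The data were raw read counts per gene, 14201154 and 14766841 in the Aged MPP2 libraries and 11237384 and 12127426 in the Aged MEP libraries. Levels are given as CPM, counts per 1000000 counts of the library, with library sizes scaled by the trimmed mean of M values (TMM), and are listed as replicate 1 and replicate 2. Differences are log2, MEP minus MPP2, with their standard error (SE) from edgeR's quasi-likelihood test, and adjusted p-values are Benjamini-Hochberg values over all 14154 genes tested. A gene was called at an adjusted p below 0.01. A count of 0 allows up to 3 counts, or 0.204 and 0.195 CPM in Aged MPP2 and 0.281 and 0.258 CPM in Aged MEPs, and a gene with no count in a group is given only as a bound against that floor. These bounds cover counting error only, and the sources used here do not say whether low estimates were set to 0 before deposit, in which case a bound would not hold. Of 470 genes with 8 to 12 counts in Aged MEP replicate 2, 9.36% had no count in replicate 1, and of 509 genes with 15 to 25 counts 1.77% had none.

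The transcripts of the sorting antigens, which are no finding here, followed the gates. Cd34 was at 1003 and 998 CPM in Aged MPP2 and at 0.656 and 0.602 CPM in Aged MEPs, and Ly6a, which encodes Sca-1, at 163 and 161 CPM against 0 and 0.775 CPM. Of 10 such genes 9 were lower in Aged MEPs, and Il7r, not past the threshold, was the other.

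Aged MEPs differed from Aged MPP2 in most of the genes measured, and the larger differences were losses. Of the 14154 genes tested 3695 were higher in Aged MEPs, which is 26.1%, and 4869 were lower, which is 34.4%. With a difference of at least 2-fold in addition, 1460 genes were higher (10.3%) and 3663 were lower (25.9%). The root mean square of the log2 difference between the group means was 2.16, against 0.447 between the Aged MPP2 duplicates and 0.565 between the Aged MEP duplicates. The median log2 difference over all genes tested was -0.16, or -0.07 with genes lacking counts in a group set at their bound. The Aged MEP libraries had counts for 12349 and 12446 genes and the Aged MPP2 libraries for 14076 and 14173.

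**Figure D1:**
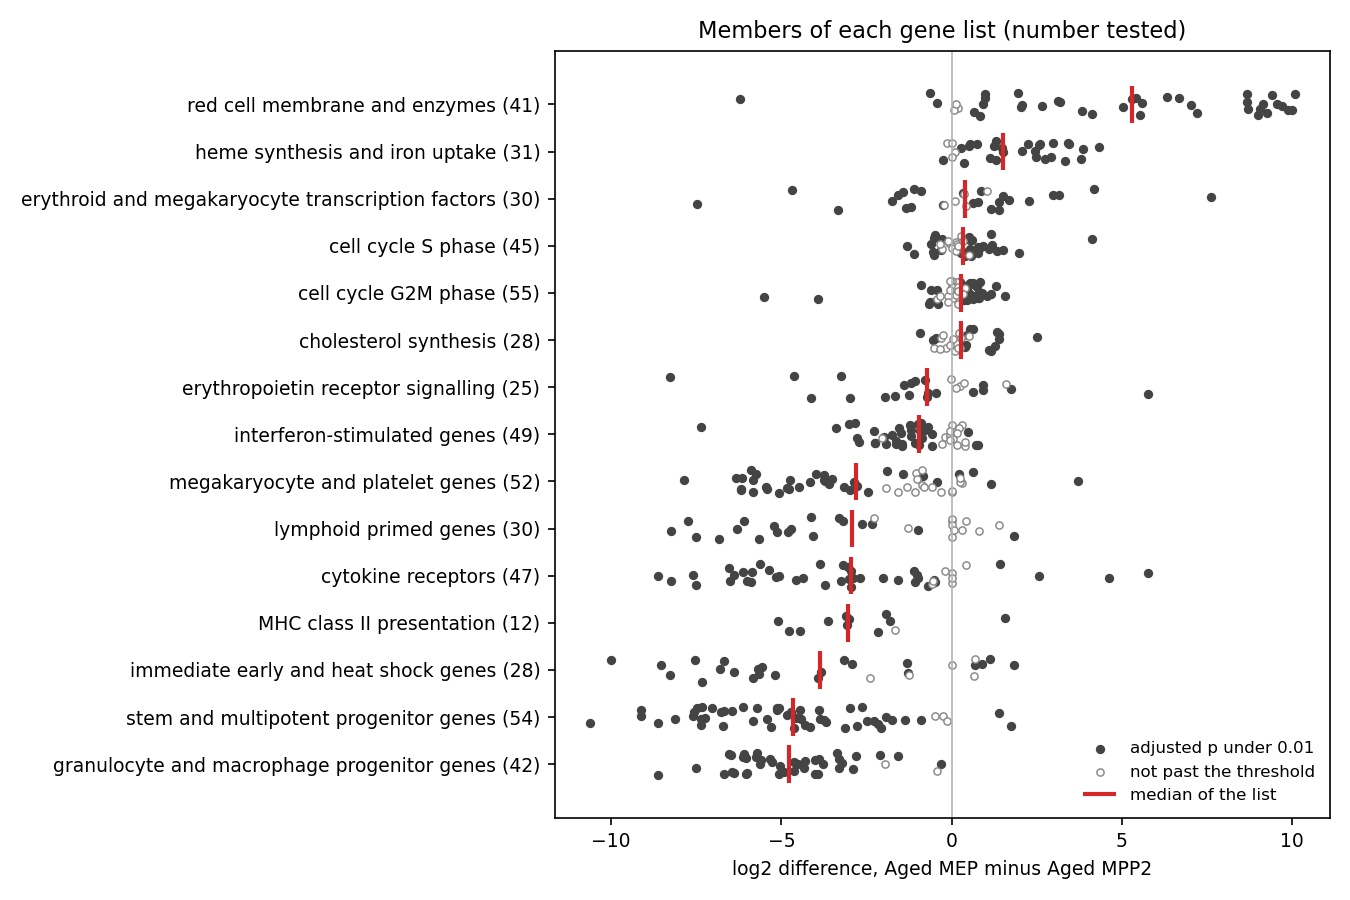
Log2 difference between Aged MEPs and Aged MPP2 for each tested member of 15 gene lists, 1 point per gene, with the number tested in brackets. Filled points passed an adjusted p of 0.01, open points did not, and a gene with no count in a group is drawn at its bound. Red bars are list medians, which run from 5.30 for red cell membrane and enzyme genes to -4.77 for granulocyte and macrophage progenitor genes.

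Gata1 and Klf1, the leading erythroid transcription factors, were higher in Aged MEPs, while Gata2, Fli1 and Erg, which act in earlier or megakaryocytic cells, were lower. Gata1, the central erythroid and megakaryocytic regulator, was at 31.4 and 27.1 CPM in Aged MPP2 and at 529 and 527 CPM in Aged MEPs. That is an 18-fold rise, with a log2 difference of 4.17 ± 0.17 (SE, adjusted p = 2.26e-15). Gata2 moved the other way, from 271 and 291 CPM to 81.1 and 87.1 CPM (-1.74 ± 0.21, adjusted p = 1.98e-07). Klf1, which activates adult globin and many other red cell genes, rose from 5.83 and 5.14 CPM to 1119 and 1065 CPM, or 199-fold (7.63 ± 0.24, adjusted p = 3.38e-17). In the annotation GENCODE M21 of GRCm38, Gata1 lies at chrX:7959260-7978071 on the minus strand and Klf1 at chr8:84901928-84905291 on the plus strand. In these 3 genes the duplicates of a group lay far closer together than the groups, and the groups did not overlap.

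Gfi1b, a repressor needed in both lineages, rose from 62.8 and 64.5 CPM to 617 and 523 CPM (3.16 ± 0.15). Tal1, a partner of GATA1 in activating complexes, rose from 37.0 and 34.6 CPM to 101 and 85.7 CPM (1.38 ± 0.15). Zfpm1, which encodes the GATA1 cofactor FOG1, was at 190 and 196 CPM in Aged MPP2 and at 391 and 402 CPM in Aged MEPs, but its log2 difference of 1.04 ± 0.34 had an adjusted p of 0.0108 and missed the threshold. With a correction for GC content and length it was 1.81 (adjusted p = 3.87e-05), and it also passed with the replicate number as a block. In a fit of the 4 aged libraries alone Zfpm1 passed as well (1.04, adjusted p = 1.46e-06). Fli1, an ETS factor of megakaryocytes and stem cells, fell from 185 and 190 CPM to 7.50 and 7.06 CPM, or 25.7-fold (-4.69 ± 0.17, adjusted p = 3.07e-16). Erg, its close relative, fell from 77.8 and 69.7 CPM to 0.469 and 0.344 CPM (-7.48 ± 0.37). Smaller decreases were found in Runx1 (-1.58 ± 0.11), in Sox6 (-1.43 ± 0.18), in Nfe2, which drives platelet release (-1.10 ± 0.13), and in Myb (-0.26 ± 0.08, adjusted p = 0.00457). The call of Myb ended without any 1 of the 4 aged libraries, with an adjusted p of 0.0103 to 0.0178.

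Over the list of 30 erythroid and megakaryocyte transcription factors, 14 were higher in Aged MEPs, 11 were lower and 5 were not called (Zfpm1, Ldb1, Foxo3, E2f2 and Cbfa2t3). The median was 0.40, the share that fell is near the 34.4% of all genes, and the share that rose is above their 26.1%. The higher group also held Nfia at 148 and 139 CPM against 17.6 and 18.7 CPM, and Bcl11a, the repressor of embryonic globins, at 203 and 201 CPM against 129 and 132 CPM. The lower group held Etv6, at 44.9 and 51.2 CPM against 482 and 489 CPM, and Bach1, a heme-sensing repressor, at 7.78 and 8.35 CPM against 18.4 and 18.2 CPM.

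**Figure D2:**
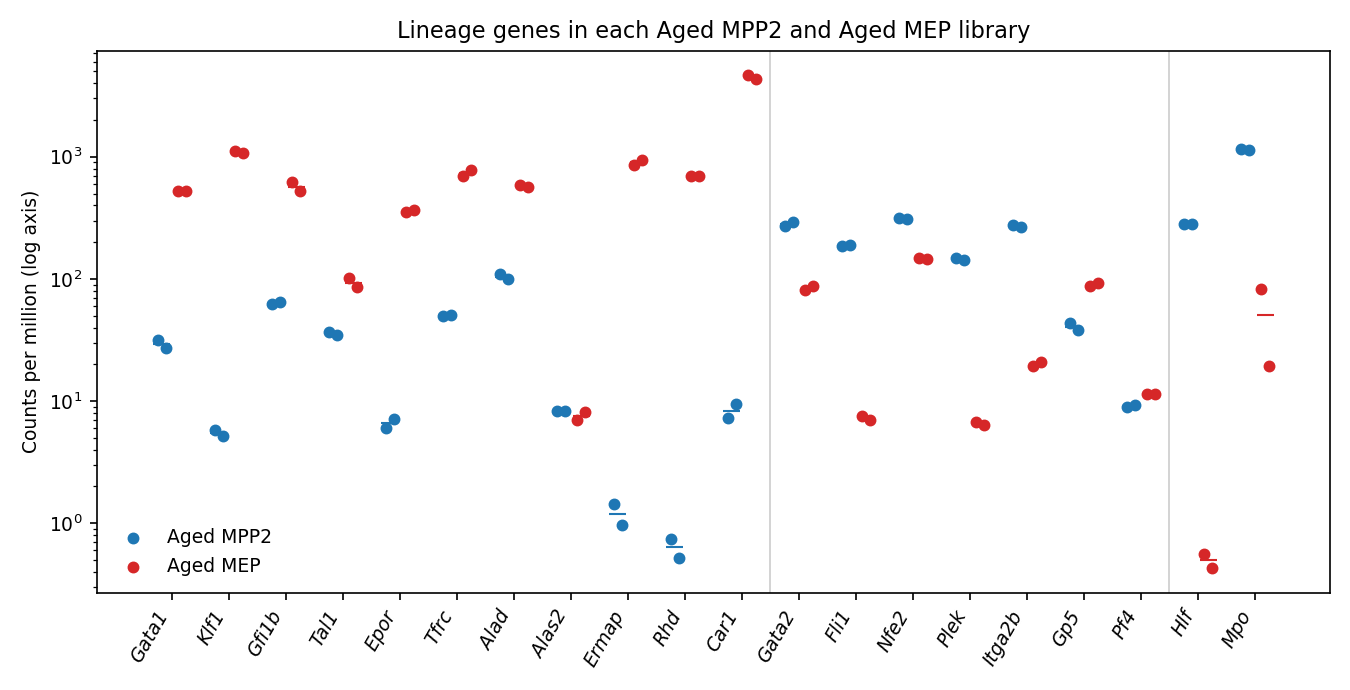
Levels of 20 lineage genes in each Aged MPP2 library (blue) and Aged MEP library (red), in CPM on a log axis, with the bar at the mean of the 2 libraries. Erythroid genes stand on the left, megakaryocyte and shared regulators in the middle and a stem cell and a myeloid gene on the right. Klf1 lies at 5.14 to 5.83 CPM in MPP2 and at 1065 to 1119 CPM in MEPs, while Alas2 and Pf4 lie close together in both.

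Promoter sequence is shown for 4 genes that rose, a pair of regulators, a receptor and a blood group gene, and for Alas2, an erythroid gene whose level did not move with them. They were chosen after the search because each holds a match, which the window of Gata1 did not. Each run is taken from RefSeq (GRCm38.p6), reads 5′ to 3′ on the strand of the gene and lies before its annotated start, ending where the gene begins in GENCODE M21 if that start comes first. Capitals mark AGATAA or TGATAA on either strand, the short sequences that GATA factors are known to bind, and a match is a description of letters and not a site. Klf1 is at chr8:84901732-84901927 on the plus strand, Gfi1b at chr2:28621983-28622232 on the minus strand, Epor at chr9:21963577-21963826 on the minus strand, Rhd at chr4:134864286-134864535 on the plus strand and Alas2 at chrX:150547167-150547374 on the plus strand.
Klf1: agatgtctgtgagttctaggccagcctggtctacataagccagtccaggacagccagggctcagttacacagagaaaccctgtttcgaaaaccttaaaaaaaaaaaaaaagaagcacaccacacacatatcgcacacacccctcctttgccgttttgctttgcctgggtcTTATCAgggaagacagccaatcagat
Gfi1b: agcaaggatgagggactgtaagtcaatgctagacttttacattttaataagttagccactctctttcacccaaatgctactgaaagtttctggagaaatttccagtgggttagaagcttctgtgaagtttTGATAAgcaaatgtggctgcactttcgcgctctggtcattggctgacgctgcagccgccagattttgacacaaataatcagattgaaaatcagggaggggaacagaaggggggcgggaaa
Epor: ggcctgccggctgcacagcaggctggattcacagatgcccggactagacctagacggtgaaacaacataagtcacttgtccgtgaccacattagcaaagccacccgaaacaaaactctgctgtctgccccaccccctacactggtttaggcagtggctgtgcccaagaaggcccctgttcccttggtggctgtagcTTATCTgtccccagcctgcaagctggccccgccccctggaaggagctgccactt
Rhd: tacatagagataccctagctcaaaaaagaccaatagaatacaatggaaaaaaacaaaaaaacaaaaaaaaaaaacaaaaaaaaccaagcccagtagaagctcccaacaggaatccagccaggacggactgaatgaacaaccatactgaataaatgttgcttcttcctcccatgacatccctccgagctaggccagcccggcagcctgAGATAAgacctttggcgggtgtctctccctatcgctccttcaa
Alas2: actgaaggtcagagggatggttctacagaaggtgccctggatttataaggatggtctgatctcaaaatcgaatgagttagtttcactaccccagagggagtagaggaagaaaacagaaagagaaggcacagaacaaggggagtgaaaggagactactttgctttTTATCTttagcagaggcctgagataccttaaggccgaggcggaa
Each of these 5 windows held 1 match, Gfi1b and Rhd on the strand of the gene and Klf1, Epor and Alas2 on the opposite strand. The match began 80 bases before the RefSeq start in Klf1, 120 in Gfi1b, 54 in Epor, 43 in Rhd and 86 in Alas2. None held CCACACCC, a spelling of the CACCC box bound by KLF1, on either strand. This says only that these letters are not in the bases printed, and other spellings were not searched.

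Among all 32851 RefSeq windows of 250 bases, 16.6% held AGATAA or TGATAA and 3.20% held CCACACCC. Of the red cell membrane and enzyme genes that rose, 23 symbols matched the table with 27 windows. Of these 8 held a GATA sequence (29.6%) and 1 held CCACACCC. Of the heme and iron genes that rose, 4 of 29 windows held a GATA sequence (13.8%), and of the megakaryocyte and platelet genes that fell, 2 of 23 windows did (8.70%). The 2 GATA spellings differ in their first letter, so no match is counted under both. A window that holds both spellings is counted as 1 window, and windows of 1 gene can overlap.

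Heme synthesis and iron uptake were higher in Aged MEPs nearly throughout the pathway, with its first erythroid enzyme as the exception. Of 31 genes tested 26 rose, 1 fell and 4 were not called, with a median of 1.5, against 26.1% of all genes that rose. Tfrc, the transferrin receptor that brings iron into the cell, rose from 50.004 and 50.5 CPM to 690 and 776 CPM (3.87 ± 0.17, adjusted p = 1.31e-14). The enzymes then rose along the pathway, Alad from 109 and 100 CPM to 587 and 567 CPM (2.47 ± 0.12) and Urod from 81.4 and 77.6 CPM to 341 and 324 CPM (2.06 ± 0.10). Cpox, the next enzyme, rose from 52.0 and 53.6 CPM to 1077 and 1061 CPM (4.34 ± 0.07), and Fech, which inserts the iron, from 85.2 and 82.6 CPM to 457 and 452 CPM (2.44 ± 0.07).

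Alas2, the erythroid form of the enzyme that begins the pathway, was at 8.28 and 8.27 CPM in Aged MPP2 and at 7.03 and 8.18 CPM in Aged MEPs. Its log2 difference of -0.12 ± 0.52 was smaller than its error (adjusted p = 0.867). Alas1, the form used in all tissues, was at 68.1 and 69.9 CPM against 59.1 and 57.0 CPM and was the member that fell (-0.25 ± 0.07, adjusted p = 0.00276). Slc25a37, the mitochondrial iron importer mitoferrin, rose by less than the enzymes, from 22.8 and 21.5 CPM to 31.6 and 31.2 CPM (0.50 ± 0.14), and without any 1 of the 4 libraries it was not called (adjusted p = 0.0218 to 0.0544). The iron stores moved up too, with Ftl1 at 2773 and 2666 CPM against 947 and 978 CPM and Fth1 at 2952 and 2687 CPM against 1032 and 1263 CPM. Besides Alas2, the members not called included Slc48a1 and Ireb2, whose log2 differences were 0.11 and 0.01.

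The largest rises of any list were in genes of the red cell surface and of red cell enzymes. Of 41 tested 35 rose, 3 fell and 3 were not called, against 26.1% of all genes that rose. The median log2 difference was 5.30. Rhd, a Rhesus blood group carrier, had 0.746 and 0.521 CPM in Aged MPP2 and 690 and 691 CPM in Aged MEPs (10.07 ± 0.33, adjusted p = 2.56e-16). Ermap, the protein of the Scianna blood group, rose from 1.42 and 0.977 CPM to 857 and 946 CPM (9.55 ± 0.28). Kel, of the Kell blood group, rose from 0.204 and 0.195 CPM to 165 and 181 CPM (9.70 ± 0.30), which in Aged MPP2 is close to the floor. The MPP2 libraries thus held few or no counts for the blood group genes, and the 2 MEP libraries were near each other.

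Ank1, which anchors the membrane skeleton, followed with 3 and 2 counts in the Aged MPP2 libraries and 754 and 853 counts in the Aged MEP libraries (8.68 ± 0.63). Car1, an erythroid carbonic anhydrase, rose from 7.26 and 9.44 CPM to 4633 and 4364 CPM (9.07 ± 0.57), while Car2, present in both fractions, rose from 937 and 947 CPM to 6140 and 5697 CPM (2.65 ± 0.11). Aqp1, a water channel, rose to 750 and 1001 CPM from 11.1 and 10.7 CPM (6.32 ± 0.25), and Blvrb, a reductase of heme breakdown products, to 644 and 621 CPM from 19.3 and 18.9 CPM (5.05 ± 0.14).

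Members that fell were Slc2a1, the glucose transporter GLUT1, from 68.5 and 72.3 CPM to 1.22 and 0.688 CPM (-6.21 ± 0.32, adjusted p = 2.02e-13), Bpgm, the enzyme that makes 2,3-bisphosphoglycerate (-0.43 ± 0.13), and Cd59a, a complement inhibitor (-0.63 ± 0.17). Slc4a1, the anion exchanger band 3 of mature red cells, was at 6.45 and 6.90 CPM in Aged MPP2 and at 4.40 and 10.7 CPM in Aged MEPs, so the groups overlapped. Its log2 difference was 0.18 ± 0.65. Tmod1 and Cat were the other members not called. Without Aged MEP replicate 2 the list had 1 member that fell.

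Globin transcripts did not follow the other red cell genes. Of 12 globin genes 7 were tested and 0 were called by edgeR's quasi-likelihood test, with 0 at an unadjusted p under 0.05 and 0 called by DESeq2. Hbb-b1 was at 120 and 114 CPM in Aged MPP2 and at 72.3 and 76.1 CPM in Aged MEPs (-0.66 ± 0.45, adjusted p = 0.195), and Hba-a1 at 22.8 and 29.9 CPM against 22.4 and 24.5 CPM. Hba-a2 was at 184 and 162 CPM against 323 and 326 CPM, a log2 difference of 0.91 ± 1.49 with an adjusted p of 0.609. These genes are near-identical copies, so how reads were split among them is uncertain. In a fit of the 4 aged libraries alone 1 globin was higher and 2 were lower, Hbb-b1 among them (-0.66, adjusted p = 5.34e-05). Summed over 14 markers of mature erythroid cells, Alas2 and globins among them, the level was 648 and 640 CPM in Aged MPP2 and 1160 and 1175 CPM in Aged MEPs, with 5 members higher, 1 lower (Bpgm) and 8 not called. Over all genes 26.1% were higher and 34.4% were lower. Bpgm was not called without Aged MPP2 replicate 1 or without Aged MEP replicate 2. Whether more mature red cells took part in the rise of the red cell genes was not tested. Here as elsewhere in sorted bulk cells, fewer cells of a type and less RNA per cell cannot be told apart.

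By fitted values, which for a gene with no count in a group depend on the prior count, the 12 genes named for the largest rises were Pklr, Slc25a21, Abcg4, Tspo2, Acsl6, Pdia2, Nags, Sphk1, Sh3tc2, Prss50, Spon2 and Rhd. Pklr, the red cell and liver pyruvate kinase, had no count in either Aged MPP2 library and 2015 and 2221 counts, or 189 and 191 CPM, in the Aged MEP libraries, at least 9.90 log2 units higher. Slc25a21, a mitochondrial carrier, was at least 9.65 higher, Abcg4, a sterol transporter, at least 9.55, Tspo2, an erythroid relative of the translocator protein, at least 9.27, and Acsl6, an acyl-CoA synthetase, at least 8.10. Pdia2 was at least 7.85 higher and Nags at least 7.42 higher, again from no count in Aged MPP2. DESeq2 did not call Acsl6, Pdia2 and Nags (adjusted p = 0.187, 0.197 and 0.216). Sphk1, the kinase that makes sphingosine 1-phosphate, was at 0.271 and 0.195 CPM in Aged MPP2 and at 623 and 620 CPM in Aged MEPs (11.33 ± 0.47, adjusted p = 9.96e-15). Sh3tc2, Prss50 and Spon2 had 2 or 3 counts in Aged MPP2, with log2 ratios of 10.57 (95% counting interval 8.72 to 13.6), 10.36 (8.81 to 12.6) and 10.36 (8.50 to 13.4).

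In erythropoietin signalling the receptor rose and the feedback genes fell, while the kinase and the factor it activates did not pass the test. Epor, at chr9:21958897-21963506 on the minus strand, rose 54.8-fold, from 5.97 and 7.16 CPM to 353 and 368 CPM (5.78 ± 0.25, adjusted p = 2.49e-14). Jak2, the kinase bound to the receptor, was at 93.7 and 92.3 CPM against 107 and 112 CPM (0.24 ± 0.12, adjusted p = 0.0862), and Stat5a, the factor it activates, at 253 and 261 CPM against 274 and 292 CPM (0.14 ± 0.09, adjusted p = 0.157). With a correction for GC content and length both passed, at 0.31 for Jak2 and 0.30 for Stat5a, and the list had 8 members that rose. Cish, a feedback inhibitor induced by STAT5, fell from 31.1 and 30.1 CPM to 2.34 and 4.04 CPM (-3.25 ± 0.19). Socs2 fell from 25.9 and 27.3 CPM to 0.843 and 1.29 CPM (-4.62 ± 0.25) and Socs3 from 98.4 and 100.5 CPM to 0.281 and 0.344 CPM (-8.27 ± 0.48).

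Pim1, a survival kinase, fell by less, from 21.1 and 20.8 CPM to 14.5 and 9.90 CPM (-0.78 ± 0.23), and was not called without Aged MPP2 replicate 1 (adjusted p = 0.0153), Aged MPP2 replicate 2 (0.0131) or Aged MEP replicate 2 (0.0742). Bcl2l1, which encodes the survival protein BCL-XL, fell from 52.6 and 47.6 CPM to 20.2 and 23.1 CPM (-1.21 ± 0.10). Of the 25 genes on this list 5 rose (Epor, Bcl2l11, Gab1, Shc1 and Ptpn11), 15 fell and 5 were not called. The median was -0.72, and over all genes 26.1% rose and 34.4% fell. Bcl2l11, which encodes the death-promoting protein BIM, was at 47.9 and 54.4 CPM in Aged MEPs and at 15.5 and 15.2 CPM in Aged MPP2.

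Most other cytokine receptors were lower in Aged MEPs. Of 47 tested, which include Epor, 4 rose, 36 fell and 7 were not called, against 34.4% of all genes that fell. The median was -3.03. Csf2rb, the chain shared by the receptors of IL-3, IL-5 and GM-CSF, fell from 83.3 and 81.8 CPM to 0.187 and 0.688 CPM (-7.50 ± 0.25), and Csf3r, the G-CSF receptor, from 202 and 194 CPM to 0.281 and 0.688 CPM (-8.62 ± 0.19). Il6st, the signal chain of the IL-6 family, fell from 30.5 and 33.1 CPM to 0.750 and 0.344 CPM (-5.86 ± 0.41). The 4 that rose were Epor, Il1rl1, Il2rb and Ifngr1. Il1rl1, the IL-33 receptor, was at 2.71 and 2.54 CPM in Aged MPP2 and at 67.0 and 61.8 CPM in Aged MEPs (4.61 ± 0.32), and Ifngr1, the interferon gamma receptor, rose from 125 and 131 CPM to 330 and 351 CPM (1.41 ± 0.08). Il2rb was not called without Aged MPP2 replicate 1 or without replicate 2.

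Megakaryocyte and platelet genes as a group were lower in Aged MEPs than in Aged MPP2, and Pf4, Vwf and Gp9, genes of classic platelet products, were low in both and not called. Of 52 tested 32 fell, 4 rose and 16 were not called, with a median of -2.92 (-2.81 with bounds), against 34.4% of all genes that fell. Itga2b, the CD41 integrin, fell from 276 and 266 CPM to 19.2 and 20.7 CPM (-3.76 ± 0.17, adjusted p = 1.26e-14) and its partner Itgb3 from 27.8 and 25.3 CPM to 1.12 and 3.44 CPM (-3.51 ± 0.42). Selp, the P-selectin of platelet granules and endothelium, fell from 199 and 200.3 CPM to 0.750 and 0.947 CPM (-7.86 ± 0.24). Plek fell from 149 and 144 CPM to 6.75 and 6.37 CPM (-4.48 ± 0.23), Cd9 from 134 and 140 CPM to 12.2 and 10.3 CPM (-3.61 ± 0.19) and F2r, a thrombin receptor, from 208 and 194 CPM to 54.7 and 54.1 CPM (-1.88 ± 0.24).

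Pf4, a platelet chemokine, was at 8.89 and 9.38 CPM in Aged MPP2 and at 11.3 and 11.4 CPM in Aged MEPs (0.32 ± 0.37, adjusted p = 0.460). Vwf was at 13.9 and 14.4 CPM against 15.9 and 17.5 CPM (0.24 ± 0.24) and Gp9 at 8.82 and 9.18 CPM against 6.56 and 7.83 CPM (-0.32 ± 0.22). Gp1bb, of the same platelet receptor complex as Gp9, was at 3.80 and 3.26 CPM against 1.97 and 1.46 CPM (-1.04 ± 0.45, adjusted p = 0.0440), and passed when the 4 aged libraries were fitted alone (-1.05, adjusted p = 0.00984). Gp5, a subunit of the platelet receptor for von Willebrand factor, was among the members that rose, from 43.3 and 38.1 CPM to 87.5 and 92.8 CPM (1.15 ± 0.15, adjusted p = 9.08e-07). The others were Stom, a membrane protein also abundant in red cells, from 59.7 and 55.1 CPM to 732 and 766 CPM (3.71 ± 0.09), Ptpn11 (0.64 ± 0.17) and Fermt3 (0.21 ± 0.06). Without Aged MPP2 replicate 1 or without replicate 2, only 2 members rose, and with a correction for GC content and length Vwf passed too (0.77, adjusted p = 0.00716).

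Genes of stem and multipotent cells were almost all lower in Aged MEPs. Of 54 tested 49 fell, 2 rose and 3 were not called (Pdzk1ip1, Eng and Bmi1), against 34.4% of all genes that fell. The median was -4.77 (-4.67 with bounds). Hlf, a transcription factor of stem cells, fell from 283 and 284 CPM to 0.562 and 0.430 CPM (-9.14 ± 0.30, adjusted p = 6.27e-17). Meis1, a HOX cofactor, fell from 301 and 291 CPM to 4.78 and 3.79 CPM (-6.11 ± 0.16), Mecom from 63.5 and 60.7 CPM to 1.22 and 1.12 CPM (-5.72 ± 0.25) and Hoxa9 from 41.3 and 42.6 CPM to 8.06 and 5.59 CPM (-2.62 ± 0.18). Procr, the protein C receptor used as a stem cell marker, had 408 and 449 counts in Aged MPP2 and none in Aged MEPs, at least 6.72 log2 units lower. The 2 members that rose were Clca3a1, from 11.7 and 12.8 CPM to 38.8 and 43.8 CPM (1.75 ± 0.30), and Mllt3, a chromatin reader, from 26.1 and 30.5 CPM to 74.5 and 75.2 CPM (1.4 ± 0.11).

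The 12 genes named by the largest fitted decreases had no count in either Aged MEP library, so that their rank rests on the prior count, and several of their bounds lie below the measured decreases of Hlf or Csf3r. Nr4a1, an orphan nuclear receptor and immediate early gene, had 250.3 and 306 CPM in Aged MPP2 and was at least 10.01 log2 units lower. Vldlr, a lipoprotein receptor, was at least 9.13 lower, Col4a1, a basement membrane collagen, at least 9.07, and Flt3, a cytokine receptor named in the gate, at least 8.23. Jchain (7.70), Lbp (7.59), Tgfbi (7.56), Thsd1 (7.55), Casp12 (7.49), Plxdc2 (7.42), St14 (7.39) and Prg2 (7.36) followed, each given as the least decrease on the log2 scale.

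Granulocyte and macrophage progenitor genes were lower in Aged MEPs, with 40 of 42 tested members called and none of them higher. The median was -5.05 (-4.77 with bounds), and 34.4% of all genes fell. Spi1, which encodes the myeloid factor PU.1, an antagonist of GATA1, fell from 110.5 and 114 CPM to 3.19 and 3.61 CPM (-5.04 ± 0.12, adjusted p = 5.17e-19). Cebpa fell from 18.5 and 21.4 CPM to 0.469 and 0.344 CPM (-5.59 ± 0.29). Mpo, the myeloperoxidase of granules, was at 1163 and 1135 CPM in Aged MPP2 and at 82.5 and 19.5 CPM in Aged MEPs (-4.50 ± 0.45), and Elane at 184 and 181 CPM against 20.3 and 4.39 CPM (-3.90 ± 0.44). In both granule genes the Aged MEP libraries differed by more than 4-fold from each other, replicate 1 being the higher. Cebpb and Cebpd were not called.

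Of 30 lymphoid genes tested 18 fell, 1 rose and 11 were not called, against 34.4% of all genes that fell. Their median was -3.69 (-2.91 with bounds). Il2rg, the chain shared by several interleukin receptors, fell from 262 and 254 CPM to 26.3 and 30.4 CPM (-3.18 ± 0.13) and Notch1 from 30.6 and 33.2 CPM to 0.469 and 0.775 CPM (-5.65 ± 0.42). Dntt, the polymerase of antigen receptor joining, had 143 and 162 counts in Aged MPP2 and none in Aged MEPs, at least 5.23 log2 units lower. Blnk, a B cell adaptor, rose, at 1.22 and 2.32 CPM against 0.746 and 0.260 CPM (1.83 ± 0.57, adjusted p = 0.00794). It was not called without Aged MPP2 replicate 2, without Aged MEP replicate 2, in a fit without the Young MEP libraries or in a fit of the 4 aged libraries alone.

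The genes of antigen presentation by MHC class II fell as well, 10 of 12, with Ifi30, a lysosomal thiol reductase, higher and Ciita, their activator, not called (-1.65 ± 0.56, adjusted p = 0.0125). Ciita passed without Aged MEP replicate 2 (-2.72, adjusted p = 0.00596), in a fit without the Young MEP libraries (-1.71, adjusted p = 0.00444) and when the 4 aged libraries were fitted alone (-1.65, adjusted p = 0.00507). Cd74, the invariant chain, was at 217 and 219 CPM in Aged MPP2 and at 13.3 and 37.6 CPM in Aged MEPs (-3.09 ± 0.29), and H2-Aa at 101 and 99.0 CPM against 5.43 and 19.1 CPM (-3.01 ± 0.36). Here replicate 2 of the Aged MEPs was the higher, and both libraries lay below those of MPP2. The median of this list was -3.04, and its share of members that fell stands against 34.4% of all genes.

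Cell cycle genes mostly differed by little, in both directions, and more of them rose than fell. Of 45 S phase genes 24 rose, 9 fell and 12 were not called, with a median of 0.32. Of 55 G2 and M phase genes 26 rose, 9 fell and 20 were not called, with a median of 0.28. Among all genes 26.1% rose and 34.4% fell, with a median of -0.16. Ccne1, the cyclin E that starts S phase, stood apart with a rise from 21 and 18.8 CPM to 350 and 340 CPM (4.12 ± 0.12, adjusted p = 1.03e-17). Cdc6, which loads the replicative helicase, rose from 90.8 and 88.2 CPM to 347 and 361 CPM (1.98 ± 0.08), and Rrm2, of ribonucleotide reductase, from 281 and 277 CPM to 781 and 798 CPM (1.5 ± 0.08). Ccnb1, the mitotic cyclin B, rose from 255 and 246 CPM to 441 and 453 CPM (0.84 ± 0.08).

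Pcna was at 432 and 417 CPM in Aged MPP2 and at 409 and 405 CPM in Aged MEPs (-0.06 ± 0.07, adjusted p = 0.443), Cdk1 at 214 and 212 CPM against 229 and 226 CPM (0.10 ± 0.08) and Mki67 at 229 and 258 CPM against 319 and 255 CPM (0.24 ± 0.20), where the groups overlapped. Top2a fell, from 656 and 689 CPM to 489 and 499.6 CPM (-0.44 ± 0.13), as did Tyms (-0.29 ± 0.07). Top2a was not called without Aged MPP2 replicate 2 (adjusted p = 0.0191), Aged MEP replicate 1 (0.0196) or Aged MEP replicate 2 (0.0121). With a correction for GC content and length Pcna was lower in Aged MEPs (-0.37, adjusted p = 4.88e-06) and Mki67 was higher (0.63, adjusted p = 0.00154). Some inhibitors of cyclin-dependent kinases were lower, Cdkn1a, or p21, at 1.31 and 1.55 CPM against 16.7 and 19.8 CPM (-3.66 ± 0.20), Cdkn1c, or p57, at 0.375 and 0.430 CPM against 13.8 and 15.3 CPM (-5.14 ± 0.51) and Cdkn1b, or p27, at 4.87 and 4.91 CPM against 11.7 and 11.5 CPM (-1.25 ± 0.22). Cdkn2c, or p18, was not called, at 79.6 and 79.6 CPM in Aged MEPs against 86.0 and 85.2 CPM in Aged MPP2 (-0.10 ± 0.09), and Cdkn2a and Cdkn2b were not tested. Over the 19 tested inhibitors, G1 cyclins and their partners, 4 rose (Ccne1, Rb1, Ccne2 and Ccnd3), 6 fell and 9 were not called. Those shares are near the 26.1% and 34.4% of all genes.

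Immediate early genes, which are induced within minutes of a stimulus, were far lower in Aged MEPs. Of 28 genes of the immediate early and heat shock list 19 fell, 4 rose and 5 were not called. The median was -4.56 (-3.88 with bounds), and 34.4% of all genes fell. Fos was at 3810 and 3991 CPM in Aged MPP2 and at 85.3 and 67.3 CPM in Aged MEPs (-5.68 ± 0.28, adjusted p = 1.59e-13), Egr1 at 1282 and 1401 CPM against 14.9 and 11.4 CPM (-6.67 ± 0.18) and Jun at 1794 and 1958 CPM against 130.1 and 135 CPM (-3.82 ± 0.21). The members that rose were Myc and the chaperones Hsph1, Hsp90aa1 and Hspa8, with log2 differences of 0.68, 1.84, 1.13 and 0.88. Hspa1a, which shares reads with a near-identical copy, was at 67.0 and 262 CPM in the Aged MEP libraries and at 96.9 and 113 CPM in Aged MPP2, so it was not called (0.66 ± 0.42). Without Aged MEP replicate 1 it was (1.28, adjusted p = 0.00541).

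Of 49 interferon-stimulated genes 31 fell, 3 rose (Irgm1, Samhd1 and Igtp) and 15 were not called, against 34.4% of all genes that fell. Their median was -1.0. Ifitm3, a membrane restriction factor, fell from 306 and 319 CPM to 85.0 and 78.1 CPM (-1.94 ± 0.10). Of 28 cholesterol synthesis genes 12 were higher, 3 lower and 13 not called, against 26.1% and 34.4% of all genes higher and lower. Their median was 0.27. Sqle, the squalene epoxidase, rose from 53.7 and 52.7 CPM to 136 and 133 CPM (1.34 ± 0.10), whereas Hmgcs1 (-0.94 ± 0.15) and Srebf2 (-0.55 ± 0.10), the factor that controls the pathway, fell.

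Of the marker lists of other marrow cells, the summed levels were lower in Aged MEPs, apart from those of mature red cells and macrophages. Set against the 34.4% of all genes that fell, the share of members that fell was larger for neutrophil, basophil and macrophage lists and near or below it for the B cell, T and NK cell and stromal lists. Summed over each list, neutrophil markers were at 473 and 485 CPM in Aged MPP2 and at 16 and 7.75 CPM in Aged MEPs (11 of 13 lower), markers of basophils, mast cells and eosinophils at 397 and 420 CPM against 83.5 and 88.7 CPM (12 of 17 lower), and T and NK cell markers at 194 and 197 CPM against 22.6 and 29.9 CPM (4 of 15 lower and Il2rb higher). B cell markers summed to 38.7 and 33.4 CPM against 2.90 and 3.79 CPM (3 of 15 lower and Blnk higher), and stromal and endothelial markers to 188 and 193 CPM against 76.7 and 73.6 CPM (5 of 13 lower and Plvap higher). Most of the basophil list sum was Gata2, which also acts in early progenitors, at means of 281 CPM in Aged MPP2 and 84.1 CPM in Aged MEPs. The T and NK sum in Aged MPP2 was mostly Nkg7, also on the granulocyte and macrophage list, at means of 173 CPM in Aged MPP2 and 8.51 CPM in Aged MEPs. Macrophage markers summed to 95.4 and 101.0 CPM in Aged MPP2 and to 193 and 189 CPM in Aged MEPs, but 13 of 15 members were lower. The sum rested on Slc40a1, the iron exporter ferroportin, which red cell precursors also make, at 12.9 and 12.1 CPM against 186 and 181 CPM. C1qa, a defining macrophage gene, had 88 and 93 counts in Aged MPP2 and none in Aged MEPs, and Cd3e, of T cells, had 4 counts and none in the Aged MPP2 libraries and none in the Aged MEP libraries. The part of such cells in the myeloid and lymphoid differences above was not tested.

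**Figure D3:**
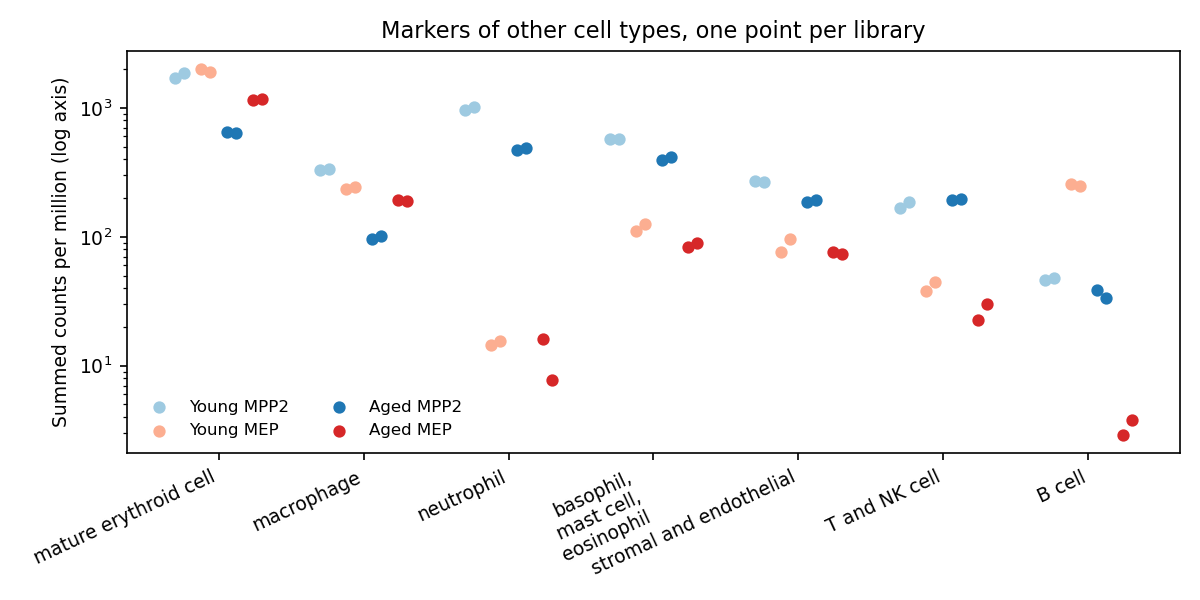
Summed levels of 7 marker lists in each library, in CPM on a log axis, for MPP2 (blue) and MEPs (red) of young (pale) and aged (dark) mice. Aged MEPs lie below Aged MPP2 for neutrophil (7.75 to 16 against 473 to 485 CPM) and B cell markers, and above them for mature erythroid and macrophage lists.

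The levels in the other aged fractions show how far single erythroid genes were limited to MEPs, which differed from gene to gene. As means of 2 libraries, Klf1 was at 1092 CPM in Aged MEPs and 5.49 CPM in Aged MPP2, and between 0.329 CPM (MPP4) and 2.46 CPM (hematopoietic stem cells, HSCs) in the other 6 fractions, which also held MPP1, MPP3 and the granulocyte and macrophage and common lymphoid progenitors. Gata1 was at 528 and 29.3 CPM in the same fractions and at no more than 11.5 CPM (MPP1) elsewhere. Epor was at 361 CPM in Aged MEPs, at 8.57 CPM in HSCs and at 6.57 CPM in MPP2. For Klf1, Gata1 and Epor, Aged MPP2 were nearer to the other multipotent fractions than to MEPs. Rhd, at 691 CPM in Aged MEPs, was at no more than 1.70 CPM (common lymphoid progenitors) elsewhere. Other genes that rose were less limited to MEPs. Gfi1b was at 570 CPM in Aged MEPs and 102 CPM in HSCs, Tal1 at 93.5 and 52.0 CPM, and Car2 at 5918.5 and 1513.9 CPM. Tfrc was at 733 CPM in Aged MEPs and 179 CPM in common lymphoid progenitors. Itga2b was highest of the aged fractions in MPP2, at 271 CPM, followed by MPP1 at 153 CPM and MPP3 at 141 CPM, with MPP4 at 23.4 CPM and MEPs at 20.0 CPM the lowest.

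The comparison in young mice asked which of these differences depend on age. Of the genes tested 3866 were higher in Young MEPs than in Young MPP2 (27.3%) and 5189 were lower (36.7%). Of the 8564 genes called in aged cells 7183 were called in young cells too, which is 83.9% of the aged calls and 79.3% of the young ones, and 7086 of them differed in the same direction. Across all genes tested the aged and young differences had a correlation of 0.777, given as a description, since genes are not independent replicates. Young MEP duplicates differed more than the others, by a root mean square log2 difference of 0.840, and of 474 genes with 8 to 12 counts in Young MEP replicate 2, 24.7% had no count in replicate 1.

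The difference between the fractions depended on age, tested as an interaction, in 903 genes with a higher value in aged cells (6.38% of those tested) and 1382 genes with a lower one (9.76%). Without Aged MPP2 replicate 1 these counts were 441 and 1130, without Aged MPP2 replicate 2 495 and 1217, without Aged MEP replicate 1 581 and 1174 and without Aged MEP replicate 2 454 and 1061. Leaving out Young MPP2 replicate 1 or 2 gave 574 and 947 or 581 and 999.

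Of 41 red cell membrane and enzyme genes 17 had a higher and 1 a lower aged difference, against 6.38% and 9.76% of all genes tested. In Rhd, Ermap, Car1 and Klf1 the MPP2 levels differed between ages by a larger factor than the MEP levels. Rhd was at 9.37 and 11 CPM in Young MPP2 against 0.746 and 0.521 CPM in Aged MPP2, and at 620 and 640 CPM in Young MEPs (interaction 4.12, adjusted p = 1.49e-06). Ermap was at 10.3 and 10.3 CPM in Young MPP2 and at 678 and 765 CPM in Young MEPs (interaction 3.41, adjusted p = 9.70e-07), and Car1 at 52.8 and 54.0 CPM and at 3448 and 3496 CPM (interaction 3.05, adjusted p = 0.000958). The interaction of Car1 was not called without Aged MPP2 replicate 1 (adjusted p = 0.0115) or by DESeq2 (adjusted p = 0.140). Klf1 was at 15.2 and 15.5 CPM in Young MPP2 and at 1030 and 974 CPM in Young MEPs (interaction 1.61, adjusted p = 0.000315). Of the 30 transcription factors 13 had a higher and 2 a lower aged difference. Mature erythroid markers summed to 1719 and 1860 CPM in Young MPP2, above the 648 and 640 CPM of Aged MPP2, and their part in these values was not tested.

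**Figure D4:**
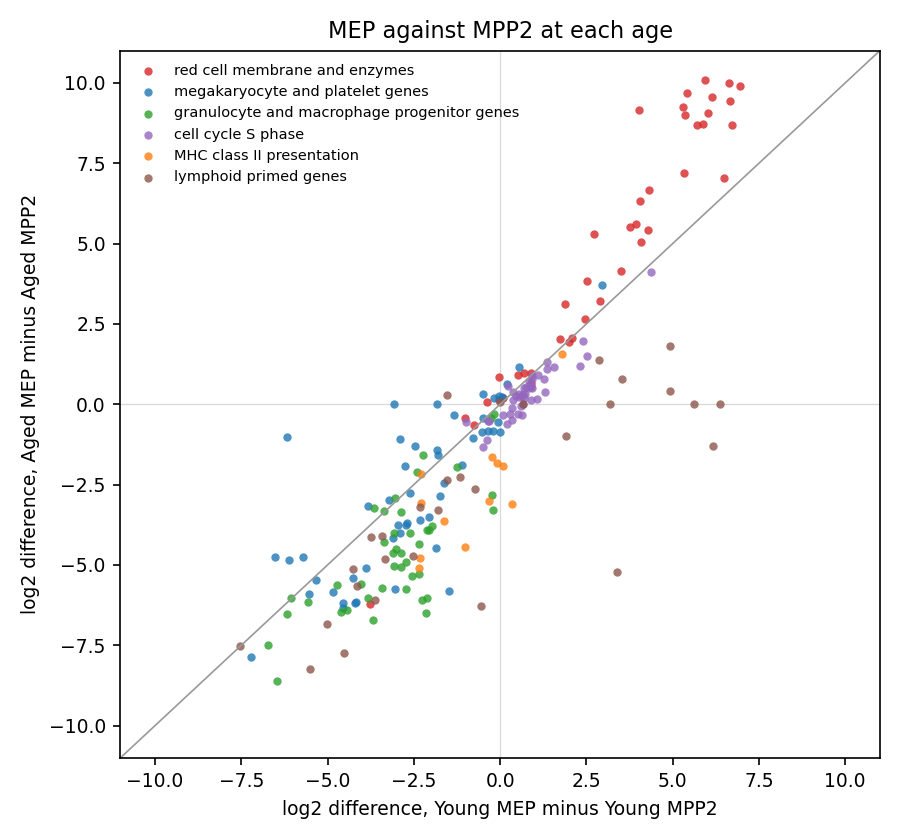
Log2 difference between MEPs and MPP2 in young mice (horizontal) and in aged mice (vertical) for the tested members of 6 gene lists, 1 point per gene, with the line of equality. A gene with no count in a group is drawn at its bound. Red cell genes (list medians 3.75 young and 5.30 aged) lie above the line at their upper end, and granulocyte and macrophage progenitor genes (-2.88 and -4.77) lie mostly below it.

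Several other groups separated the fractions less in young mice. Fli1 was at 182 and 189 CPM in Young MPP2 and at 33.5 and 55.9 CPM in Young MEPs, so that its aged difference was 2.63 log2 units lower (interaction -2.63, adjusted p = 1.27e-08). Of the 42 granulocyte and macrophage progenitor genes 20 had a lower aged difference and none a higher one. Of the 12 MHC class II genes 8 had a lower one, and over all genes tested 9.76% did. Cd74 was at 90.3 and 90.6 CPM in Young MPP2 and at 109 and 121 CPM in Young MEPs (interaction -3.43, adjusted p = 1.47e-06). Dntt and Cd79a, which are lymphoid genes, were at 55.3 and 55.5 CPM and at 53.5 and 57.5 CPM in Young MEPs and had no count in Aged MEPs. B cell markers summed to 257 and 249 CPM in Young MEPs, against 2.90 and 3.79 CPM in Aged MEPs, and the part of B lineage cells in the lymphoid values of the young libraries was not tested.

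The cell cycle lists went the other way from the red cell genes, with 18 of 45 S phase genes and 13 of 55 G2 and M phase genes having a lower aged difference and none a higher one. Over all genes tested 9.76% had a lower aged difference and 6.38% a higher one. Rrm2 was at 194 and 198 CPM in Young MPP2 and at 1108 and 1123 CPM in Young MEPs, a log2 difference of 2.51 that became 1.5 in aged cells (interaction -1.01, adjusted p = 6.15e-07). Pcna rose in young cells, from 336 and 347 CPM to 543 and 501 CPM, and was not called in aged ones (interaction -0.67, adjusted p = 3.37e-05). Of 49 interferon-stimulated genes 17 had a higher aged difference and 5 a lower one, and the share with a lower one is near that of all genes. Of 28 cholesterol genes 12 had a higher and 1 a lower aged difference, among them Sqle, at 87.2 and 96.7 CPM in Young MPP2 and at 126 and 111 CPM in Young MEPs (interaction 0.98, adjusted p = 4.11e-05).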

How the data were processed

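RNA was isolated from sorted bone marrow fractions with the RNeasy Plus Micro kit, amplified with the SMARTer Ultra Low Input kit, sonicated and built into libraries, without molecular identifiers. The authors aligned reads with TopHat2 (2.0.13) and Bowtie2 (2.1.0) to mm10, versions taken from the submitters' processing notes, and the deposited raw counts per gene came from StringTie with iGenomes annotation. The use of strand is not given in the sources used here. The deposited normalized table and the 8 tables of the authors' comparisons (fold changes and p-values) were not used.

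Counts of 24421 genes in all 32 libraries were fitted in edgeR (4.0.16) with TMM scaling and 16 group means, leaving 16 residual degrees of freedom, and 14154 genes passed filterByExpr. Contrasts were tested by the two-sided quasi-likelihood F-test at a Benjamini-Hochberg adjusted p below 0.01. Total counts were 11237384 to 14766841 in the 4 aged libraries compared and 12460872 to 16351862 in the young ones. Symbols were matched to GENCODE M21, 23350 directly and 669 by an older symbol, and 98.92% of tested genes had a GC content and length. Date-like symbols, 27 in number with 0.188% of counts, stayed in library sizes and tests. Replicates of a group differed beyond counting noise, so none was taken for a copy. The correlation of same-numbered replicates' deviations was 0.0182 in aged and -0.0056 in young cells, so the numbers were not treated as pairs.

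Alternatives were DESeq2 (1.42.0), its size factors, no filter, the replicate number as a block, offsets for GC content and gene length, fewer libraries, other thresholds, and leaving out each library. Methods were tested on simulated data. Gene lists and members were chosen with earlier results of these data known. Genes named were chosen members of each list, the 12 largest changes in each direction at 20 CPM or more with groups that did not overlap and no predicted or date-like symbol, the 8 largest age-dependent differences in each direction, and members behind counts of 5 or fewer. Some members were named after their values were seen. Ahsp, Flvcr1, Ighm, Trbc2, Rnf213, Trac and Ly6g were not analysed here. A few list members entered the fits and counts and are not reported here. R (4.3.3), Python (3.11.15), pandas (2.3.3) and matplotlib (3.10.9) were used.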

Additional observations from a re-analysis of the deposited data

Results flagged for a closer look

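The results here stood out because the log2 difference between MEPs and MPP2 was not the same at both ages, by edgeR's interaction test at an adjusted p below 0.01. They concern 75 named genes, and each value is the aged difference minus the young difference, in log2 units. Of these 75 genes 51 were called without each of the 8 libraries in turn, and between 11 and 19 lost their call without any 1 library.

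The aged difference was the higher in red cell genes and their regulators, with Gata1 0.94, Klf1 1.61, Gfi1b 0.91, Epor 1.34, Ermap 3.41, Rhd 4.12, Car1 3.05, Aqp1 2.28 and Blvrb 0.97. It was also higher in the interferon genes Irf7 1.02, Ifit1 2.01 and Isg15 1.07, in the cholesterol genes Sqle 0.98 and Fdft1 0.67, and in the immediate early genes Jun 2.30 and Egr1 0.96. The others in this direction were Alas1 0.51, Kit 0.69, Ifngr1 0.46, Ccnd2 0.67, Sphk1 4.78, Sh3tc2 3.90 and Prss50 3.59. The calls of Gata1, Gfi1b, Epor, Car1, Irf7, Ifit1 and Isg15 each ended in some fits that left out a single library. So did those of Fdft1, Egr1, Kit, Ifngr1, Ccnd2, Sh3tc2 and Prss50. Prss50 was at 7.17 without Aged MPP2 replicate 1 (adjusted p = 0.0133) and Sh3tc2 at 6.95 without Aged MPP2 replicate 2 (adjusted p = 0.0201). Without Young MEP replicate 2, Fdft1 was at 0.43 (adjusted p = 0.0708) and Egr1 at 0.63 (adjusted p = 0.0311), and none of these 4 passed by edgeR's test.

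The aged difference was the lower in genes of stem, megakaryocytic and multipotent cells, with Slamf1 -3.08, Cd48 -2.58, Fli1 -2.63, Erg -3.31, Meis1 -1.51, Sox4 -1.02, Satb1 -2.18, Itga2b -0.80, Plek -2.63 and Cd9 -1.28. Tfrc, the transferrin receptor of red cell precursors, also went this way with -1.39, and Socs2 with -3.17. Myeloid and lymphoid genes followed, with Spi1 -1.96, Ctsg -2.93, Irf8 -3.10, Cd53 -3.85, Nkg7 -1.99, Cpa3 -1.74 and Il2rg -0.86. The class II genes were Cd74 -3.43, H2-Aa -2.69, H2-Ab1 -1.72 and H2-Eb1 -2.01. Cell cycle genes had smaller values, Pcna -0.67, Tyms -0.81, Rrm2 -1.01, Ccne2 -1.12, Cdc6 -0.43, Cdk1 -0.53, Top2a -0.66, Ccnb1 -0.70, Aurkb -0.52, Cdkn1a -1.35 and Ccnd3 -0.74. Ctsg was at -4.93 without Aged MEP replicate 1. H2-Eb1 was at -3.32 without Aged MEP replicate 2 and at -1.425 without Aged MEP replicate 1. It was not called by DESeq2 (-2.06, adjusted p = 0.0357) or by edgeR in a fit of only the compared libraries (-2.01, adjusted p = 0.0493). The calls of H2-Eb1, Itga2b, Cpa3, Cdc6, Cdk1, Top2a and Aurkb ended in some fits that left out a single library.

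For 18 of the genes 1 of the 4 groups had no count, so that the fitted value depends on the prior count and is no bound. Those with a positive value were Fos 12.61, Ngp 8.39, Ltf 8.40, Pklr 7.41, Tspo2 8.42, Slc25a21 6.57, Pam 6.84 and Fosl2 6.59. The value of Ltf rested on Aged MEP replicate 1, without which it was 1.36. The calls of Ngp and Slc25a21 also ended in some fits that left out a single library. Those with a negative value were Dntt -13.50, Cd79a -11.46, Flt3 -7.61, Lbp -7.21, Plxdc2 -8.72, St14 -8.89, Pik3ap1 -9.95, Tagap -9.54, Myl10 -9.12 and Eps8 -8.73. Fos, an immediate early transcription factor, had 39171 and 41652 counts in Young MPP2 and none in the Young MEP libraries, while the Aged MEP libraries had 910 and 782. Jun, its partner, was at 22.2 and 20.7 CPM in Young MEPs and at 130.1 and 135 CPM in Aged MEPs.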

How the results depend on the processing

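No named gene with a call reversed direction under the alternatives run, and lower genes outnumbered higher ones in every setting. For named genes without a call, reversals were not checked. Among all genes called in young cells, 29 were called in the opposite direction after a correction for GC content and length. That number was 30 with the replicate number as a block in addition. Of the age-dependent calls 74.5% recurred after the correction alone, and 64.3% in a fit of only the libraries compared. The counts for Aged MEPs against Aged MPP2, 3695 higher and 4869 lower, became 3660 and 5201 with DESeq2 and 4082 and 5000 in a fit of only the libraries compared. They became 4269 and 5547 at an adjusted p below 0.05. A 2-fold difference asked for in addition left 1460 genes higher in aged and 1663 in young cells. The same demand left 408 and 625 age-dependent genes in place of 903 and 1382, and an adjusted p below 0.05 gave 1591 and 2169, each by construction of the threshold. Leaving out 1 library gave 2969 to 3060 higher and 4321 to 4557 lower genes in aged cells, 3324 to 3684 and 4616 to 4813 in young cells, and 441 to 754 and 947 to 1620 age-dependent genes, each fit having 1 library fewer. A group left with 1 library is assumed to vary like the others. Age-dependent counts were 1160 and 1988 with DESeq2, 729 and 1507 without a filter, and 653 and 1066 in a fit of only the compared libraries, and the cause was not tested.

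The replicate numbers are only numbers here, and as a block they gave 3702 and 4859 genes in aged cells and 904 and 1386 age-dependent ones. Of 161 named genes tested in aged cells 157 kept their side of the threshold with DESeq2, 154 with a correction for GC content and length, and 156 to 157 without 1 library. At 11237384 to 14766841 counts per library, a gene below 1 CPM rests on few reads.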
